A study of Mus musculus with 6 samples.

Results

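The breakdown of the branched-chain amino acids leucine, isoleucine and valine was followed through 30 genes in RNA of hepatocytes from CCl4-treated mice with and without Foxa2. The genes were taken by name in pathway order, from the transaminases and the mitochondrial dehydrogenase that all 3 amino acids share to the enzymes of each amino acid and of propionate. All 30 were found among the 34745 genes counted, and 29 of them were among the 14417 genes with enough counts to be tested.

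The liver is known to take up branched-chain keto acids that other tissues make by transamination and to commit them to oxidation with the branched-chain keto acid dehydrogenase complex (BCKDH), which the kinase Bckdk switches off by phosphorylation and the phosphatase Ppm1k switches on. Leucine then ends in acetoacetate and acetyl-CoA, isoleucine in acetyl-CoA and propionyl-CoA, and valine in propionyl-CoA, which a route that needs biotin and cobalamin carries to succinyl-CoA. Foxa2 encodes a forkhead transcription factor that is active in hepatocytes and is known for its part in lipid, ketone body and bile acid metabolism.

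Both groups were male mice aged 12 weeks that carried loxP-flanked Foxa2 alleles. FOXA2f/f+CCl4 mice received AAV8-TBG-Control and FOXA2H-KO+CCl4 mice AAV8-TBG-Cre through the tail vein, where TBG is a promoter active in hepatocytes, so that Cre was expressed in these cells. The viruses were injected 2 weeks before CCl4, a hepatotoxin that causes fibrosis, was started at 0.25 ml/kg, given 2 times per week for 4 weeks, and the mice were killed on day 3 after the last injection. The liver was perfused with collagenase, hepatocytes were spun down at low speed, and their poly-A RNA was sequenced as paired-end libraries. Each group had 3 libraries, numbered 1, 2 and 4, and no library of mice without CCl4 was analysed here, so the effect of CCl4 itself was not compared.

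Total counts were between 20983455 and 28327765 per library. Foxa2 was at 19.0, 13.5 and 16.4 CPM in FOXA2f/f replicates 1, 2 and 4 and at 1.03, 0.762 and 1.62 CPM in FOXA2H-KO, a log2 fold change of -3.85 with a standard error (SE) of 0.31 (edgeR adjusted p = 0.0313), so every library went with its label. That adjusted p ran from 0.0340 to 0.499 when single libraries were left out, at log2 fold changes between -4.17 and -3.63. CPM are counts per 1000000 counts of the tested genes in the library, here rescaled by the trimmed mean of M-values (TMM, factors between 0.870 and 1.124). The 10 hepatocyte markers summed to between 114992 and 159823 CPM in FOXA2f/f and between 108180 and 142654 CPM in FOXA2H-KO libraries. Markers of other liver cells were also read. The 10 stellate cell markers summed to 1084 to 2781 CPM in FOXA2f/f and 1617 to 2648 CPM in FOXA2H-KO, the 10 macrophage markers to 581 to 2609 and 1301 to 1881 CPM, and the 10 endothelial markers to 223 to 787 and 387 to 502 CPM. Cholangiocyte markers summed to 183 to 371 CPM in FOXA2f/f and 257 to 719 CPM in FOXA2H-KO, and those of lymphocytes and neutrophils to at most 82.9 CPM, with Cd3e, Cd3g and Ly6g under 0.5 CPM. The fitted value was lower in FOXA2H-KO for 9 of 10 hepatocyte markers and higher for 9 of 10 stellate cell, 9 of 10 macrophage, 4 of 10 endothelial, 5 of 6 tested lymphocyte, 1 of 5 tested neutrophil and 7 of 7 tested cholangiocyte markers. At an unadjusted p under 0.05 stood 3 neutrophil markers and 2 cholangiocyte markers, where 5.17% of all genes passed. The groups of 2 cholangiocyte markers and 1 stellate cell marker did not overlap on CPM, against 10.5% of all genes. In such bulk samples, fewer cells of a type and less RNA per cell cannot be told apart.

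Of the 29 tested genes, 0 were called between the groups, where a call needed a Benjamini-Hochberg adjusted p under 0.05 in the edgeR quasi-likelihood test and a fold change of at least 2. Over all genes tested, 0.00694% were called, that is Foxa2 alone. At an unadjusted p under 0.05, 3 of the 29 genes passed, all lower, against 5.17% of all genes (3.18% lower and 1.98% higher), and without FOXA2f/f replicate 4 the number was 13, where 16.6% of all genes passed. DESeq2, edgeR's exact test and limma on FPKM called 0 of the 29 as well. The fitted value was lower in FOXA2H-KO for 23 of the 29 and higher for 6, with a median log2 fold change of -0.21, while 52.2% of all genes were lower and their median was -0.01. With libraries scaled by their total alone, 20 of the 29 were lower, against 32.3% of all genes. The median of the 29 was -0.34 without FOXA2f/f replicate 4 and -0.11 without FOXA2f/f replicate 2. These are counts and a median over a list, with no test of the list itself.

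**Figure D1:**
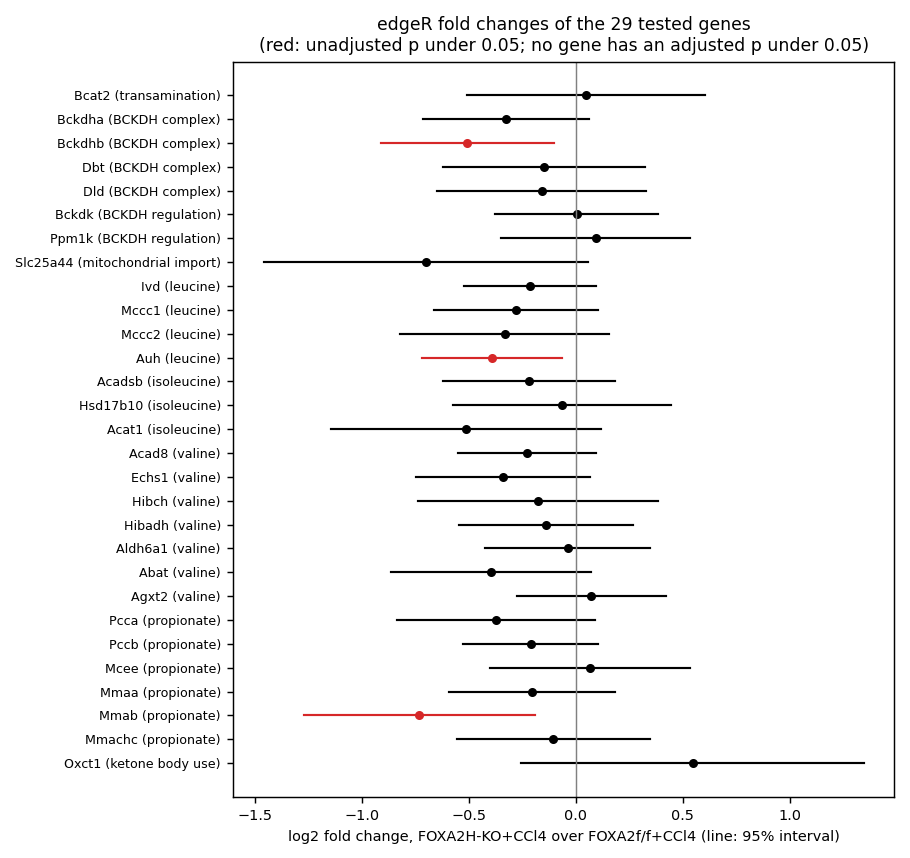
Fitted log2 fold change of FOXA2H-KO+CCl4 over FOXA2f/f+CCl4 for each of the 29 tested genes in pathway order, with its 95% interval as a horizontal line. The 3 genes at an unadjusted p under 0.05 (Bckdhb, Auh and Mmab, red) lie left of 0, and the intervals of the other 26 cross 0.

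Lower fitted values were found at most steps of the pathway. All 4 subunits of BCKDH, all 4 leucine genes, all 3 isoleucine genes, 6 of 7 valine genes and 5 of 6 propionate genes had a lower fitted value in FOXA2H-KO, with group medians between -0.18 and -0.31 on the log2 scale. Bcat2, the kinase and phosphatase of BCKDH, Agxt2, Mcee and Oxct1 had higher fitted values. Over all genes, 52.2% were lower. Several of these signs rested on FOXA2f/f replicate 2, without which 19 of the 29 were lower. Dld (0.044), Hibch (0.087), Hibadh (0.0051), Aldh6a1 (0.034) and Mmachc (0.039) were then above 0, while Bcat2 (-0.17) and Ppm1k (-0.065) were below it.

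The levels of the genes were compared per length, as FPKM (fragments per kilobase of gene length, relative to the library total) averaged over the 6 libraries. Aldh6a1, the methylmalonate semialdehyde dehydrogenase of the valine route, had the highest level at 80.7 FPKM. It was followed by Dld at 61.9, Acat1 at 51.5, Hsd17b10 at 38.4 and Dbt at 29.8 FPKM. The lowest levels among tested genes were those of Mccc1 at 2.48, Bckdk at 2.01 and Auh at 1.72 FPKM. The order depends on the gene lengths implied by the deposited values, which ran from 1791 to 13304 bases and were among the longest for Mccc1 (13304 bases) and Auh (12626 bases).

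Transamination was represented by Bcat2, the mitochondrial transaminase, and by Bcat1, its cytosolic counterpart. Bcat1 had 0, 1 and 2 counts in FOXA2f/f replicates 1, 2 and 4 and 6, 1 and 2 counts in FOXA2H-KO, so it was not tested and no fold is given. Bcat2 was at 14.2 ± 4.40 CPM (SD, n = 3) in FOXA2f/f and 14.7 ± 1.12 CPM in FOXA2H-KO, a log2 fold change of 0.05 (SE 0.24, 95% interval -0.51 to 0.60).

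BCKDH is built from a decarboxylase of 2 subunits, encoded by Bckdha and Bckdhb, a lipoate-bearing transacylase core encoded by Dbt and a dihydrolipoamide dehydrogenase encoded by Dld that other dehydrogenase complexes share. Bckdhb (ENSMUSG00000032263, GRCm38 chromosome 9, 83925145 to 84124240, plus strand) was at 45.6, 36.4 and 37.4 CPM in FOXA2f/f and at 23.8, 34.1 and 26.0 CPM in FOXA2H-KO. The groups did not overlap on this scale, the closest pair being FOXA2f/f replicate 2 and FOXA2H-KO replicate 2. The log2 fold change was -0.51 (SE 0.17, 95% interval -0.91 to -0.10), and its edgeR adjusted p over all genes was 0.836. On FPKM, which divides by the library total without TMM, Bckdhb was at 16.5, 12.6 and 16.5 in FOXA2f/f and at 10.6, 13.8 and 10.3 in FOXA2H-KO, and the groups overlapped.

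Bckdha (ENSMUSG00000060376, chromosome 7, 25629946 to 25658981, minus strand) was at 27.3, 30.2 and 24.0 CPM in FOXA2f/f and at 17.5, 23.8 and 23.5 CPM in FOXA2H-KO. All 3 FOXA2H-KO libraries were below all 3 FOXA2f/f libraries on CPM and on FPKM, although FOXA2f/f replicate 4 and FOXA2H-KO replicate 2 were almost level on CPM. The log2 fold change was -0.33 (SE 0.17, 95% interval -0.72 to 0.06, edgeR adjusted p = 0.944). In the GENCODE M21 annotation, 61.7% of the exonic sequence of Bckdha overlaps B3gnt8 on the opposite strand, which had 15 to 72 counts per library, so the split of reads between them is uncertain.

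Dbt was at 137, 132 and 91.9 CPM in FOXA2f/f and at 89.4, 108 and 128 CPM in FOXA2H-KO (log2 fold change -0.15, SE 0.20, edgeR adjusted p = 0.983). The lowest FOXA2f/f library, replicate 4, lay beside the lowest FOXA2H-KO library, replicate 1. Dld was at 148, 187 and 110 CPM in FOXA2f/f and at 118, 149 and 131 CPM in FOXA2H-KO (log2 fold change -0.16, SE 0.21, edgeR adjusted p = 0.983). For both genes the groups overlapped widely and the spread within FOXA2f/f was larger than the difference between group means.

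The regulators of BCKDH had fitted values at or just above 0. Bckdk, the kinase, was at 12.8, 13.5 and 11 CPM in FOXA2f/f and at 13.6, 10.9 and 12.8 CPM in FOXA2H-KO, with a log2 fold change of 0.00 and a 95% interval of -0.38 to 0.38. Ppm1k, the phosphatase, was at 36.6, 29.2 and 48.3 CPM in FOXA2f/f and at 38.2, 39.5 and 44.1 CPM in FOXA2H-KO (log2 fold change 0.09, SE 0.19, 95% interval -0.35 to 0.54). The groups overlapped for both, and the interval of Bckdk leaves room for a change of up to 0.38 in either direction.

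Ratios of partner genes inside a library do not depend on the scaling between libraries. The log2 ratio of Bckdk to Ppm1k on FPKM was -1.49, -1.09 and -2.11 in FOXA2f/f and -1.46, -1.83 and -1.76 in FOXA2H-KO, a difference of -0.12 (exact two-sided permutation p = 0.8, where 3 libraries against 3 cannot give less than 0.1). The kinase-to-phosphatase ratio thus varied more among FOXA2f/f libraries than between the groups. Dbt to Bckdhb differed by 0.37 (exact permutation p = 0.2) and Bckdha to Bckdhb by 0.18 (exact permutation p = 0.4), and in both the groups overlapped. Mccc1 to Mccc2, the subunits of methylcrotonyl-CoA carboxylase, differed by 0.03 (exact permutation p = 0.8), and Pcca to Pccb, those of propionyl-CoA carboxylase, by -0.14 (exact permutation p = 0.5). These 5 ratios were all that were computed, and none had groups that stood apart.

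**Figure D2:**
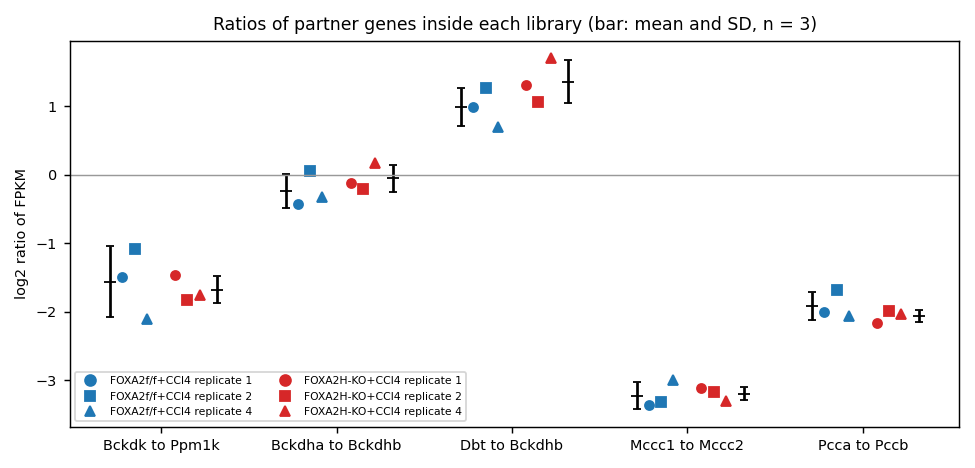
Log2 ratio of FPKM of 5 pairs of partner genes in each library (blue FOXA2f/f+CCl4, red FOXA2H-KO+CCl4; the bars give the mean and SD of 3 libraries). In every pair the red and blue points overlap, and the Bckdk to Ppm1k ratio spans -2.11 to -1.09 in FOXA2f/f alone.

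Slc25a44, the mitochondrial carrier of branched-chain amino acids, was at 54.8, 128 and 55.0 CPM in FOXA2f/f and at 51.3, 49.2 and 45.7 CPM in FOXA2H-KO. The groups did not overlap on CPM, but FOXA2f/f replicate 2 alone stood high while its other 2 libraries were close to those of FOXA2H-KO. The log2 fold change of -0.70 (SE 0.33, edgeR adjusted p = 0.941) became -0.17 without FOXA2f/f replicate 2. On FPKM the groups overlapped, with FOXA2f/f at 7.16, 16.0 and 8.78 and FOXA2H-KO at 8.29, 7.20 and 6.51.

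In the leucine route, Ivd encodes isovaleryl-CoA dehydrogenase, Mccc1 and Mccc2 the methylcrotonyl-CoA carboxylase, and Auh the methylglutaconyl-CoA hydratase that also binds RNA. Auh (ENSMUSG00000021460, chromosome 13, 52835119 to 52929681, minus strand) was at 26.3, 27.0 and 21.3 CPM in FOXA2f/f and at 19.5, 18.5 and 18.8 CPM in FOXA2H-KO. Its FOXA2H-KO libraries were below every FOXA2f/f library on CPM and also on FPKM, where they were at 1.74, 1.49 and 1.48 against 1.89, 1.86 and 1.87. The log2 fold change was -0.39 (SE 0.14, 95% interval -0.72 to -0.06, edgeR adjusted p = 0.852), and FOXA2H-KO was at 76.1% of the FOXA2f/f mean. Ivd, Mccc1 and Mccc2 had log2 fold changes of -0.22, -0.28 and -0.33 with SEs of 0.13, 0.17 and 0.21, and their groups overlapped.

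In the isoleucine route, Acadsb encodes the short/branched-chain acyl-CoA dehydrogenase, Hsd17b10 a hydroxyacyl-CoA dehydrogenase and Acat1 the mitochondrial thiolase. Acat1 was at 234, 371 and 187 CPM in FOXA2f/f and at 154, 177 and 224 CPM in FOXA2H-KO. FOXA2f/f replicate 2 was the highest of the 6 libraries and the groups overlapped. Its log2 fold change of -0.51 (SE 0.27, edgeR adjusted p = 0.952) was -0.19 without that library. Acadsb and Hsd17b10 had log2 fold changes of -0.22 and -0.07, with SEs of 0.17 and 0.22, and Hsd17b10 turned positive when libraries were scaled by their total alone.

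In the valine route, 7 genes were measured, from Acad8 (isobutyryl-CoA dehydrogenase) and Echs1 (enoyl-CoA hydratase) over Hibch and Hibadh (hydroxyisobutyryl-CoA hydrolase and hydroxyisobutyrate dehydrogenase) to Aldh6a1. Abat and Agxt2 are transaminases of beta-alanine and aminoisobutyrate, by-products near that route. Their log2 fold changes ran from -0.40 for Abat (SE 0.20) to 0.07 for Agxt2 (SE 0.15), and on CPM the groups overlapped for all 7. On FPKM, Echs1 and Abat were lower in every FOXA2H-KO library. Aldh6a1 was higher in every FOXA2H-KO library on FPKM, at 80.7, 82.1 and 86.9 against 79.5, 78.3 and 76.7 in FOXA2f/f, whereas its log2 fold change on TMM-scaled counts was -0.04 (SE 0.17, 95% interval -0.43 to 0.35). The sign for Aldh6a1 thus rested on the scaling between libraries.

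Propionyl-CoA from isoleucine and valine is carboxylated by the products of Pcca and Pccb and epimerized by that of Mcee, while Mmaa, Mmab and Mmachc handle the cobalamin cofactor of methylmalonyl-CoA mutase. Mmab (ENSMUSG00000029575, chromosome 5, 114431034 to 114444060, minus strand), which adenosylates cobalamin, was at 21.6, 24.9 and 13.4 CPM in FOXA2f/f and at 12.1, 11.3 and 12.6 CPM in FOXA2H-KO. The groups did not overlap on CPM or FPKM, though FOXA2f/f replicate 4 came close to the FOXA2H-KO libraries. Its log2 fold change of -0.73 (SE 0.23, 95% interval -1.27 to -0.19) was the lowest of the 29 genes, with FOXA2H-KO at 60.1% of the FOXA2f/f mean, and its edgeR adjusted p was 0.794. The other 5 genes had log2 fold changes between -0.37 for Pcca and 0.07 for Mcee, with SEs between 0.14 and 0.20, and overlapping groups.

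Oxct1, the enzyme that activates acetoacetate in tissues that use ketone bodies, is known to be low in hepatocytes. It was at 16.0, 11.6 and 28.5 CPM in FOXA2f/f and at 36.8, 23.0 and 22.4 CPM in FOXA2H-KO, the highest positive log2 fold change of the list at 0.55 (SE 0.35, 95% interval -0.26 to 1.35, edgeR adjusted p = 0.981). Among the 6 libraries, FOXA2f/f replicate 2 was lowest and FOXA2H-KO replicate 1 highest. Without FOXA2H-KO replicate 1 the log2 fold change was 0.27, and without FOXA2f/f replicate 4 it was 0.99. The summed stellate cell markers were also lowest in FOXA2f/f replicate 2 (1084 CPM) and high in FOXA2f/f replicate 4 (2781 CPM) and FOXA2H-KO replicate 1 (2648 CPM). In these same libraries the macrophage sums were 581, 2609 and 1881 CPM and the lymphocyte sums 19.2, 82.9 and 73.6 CPM. Endothelial sums were 223, 787 and 387 CPM there, cholangiocyte sums 183, 234 and 719 CPM and neutrophil sums 7.95, 55.9 and 24.1 CPM. The part of any of these cell types in the Oxct1 values was not tested.

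**Figure D3:**
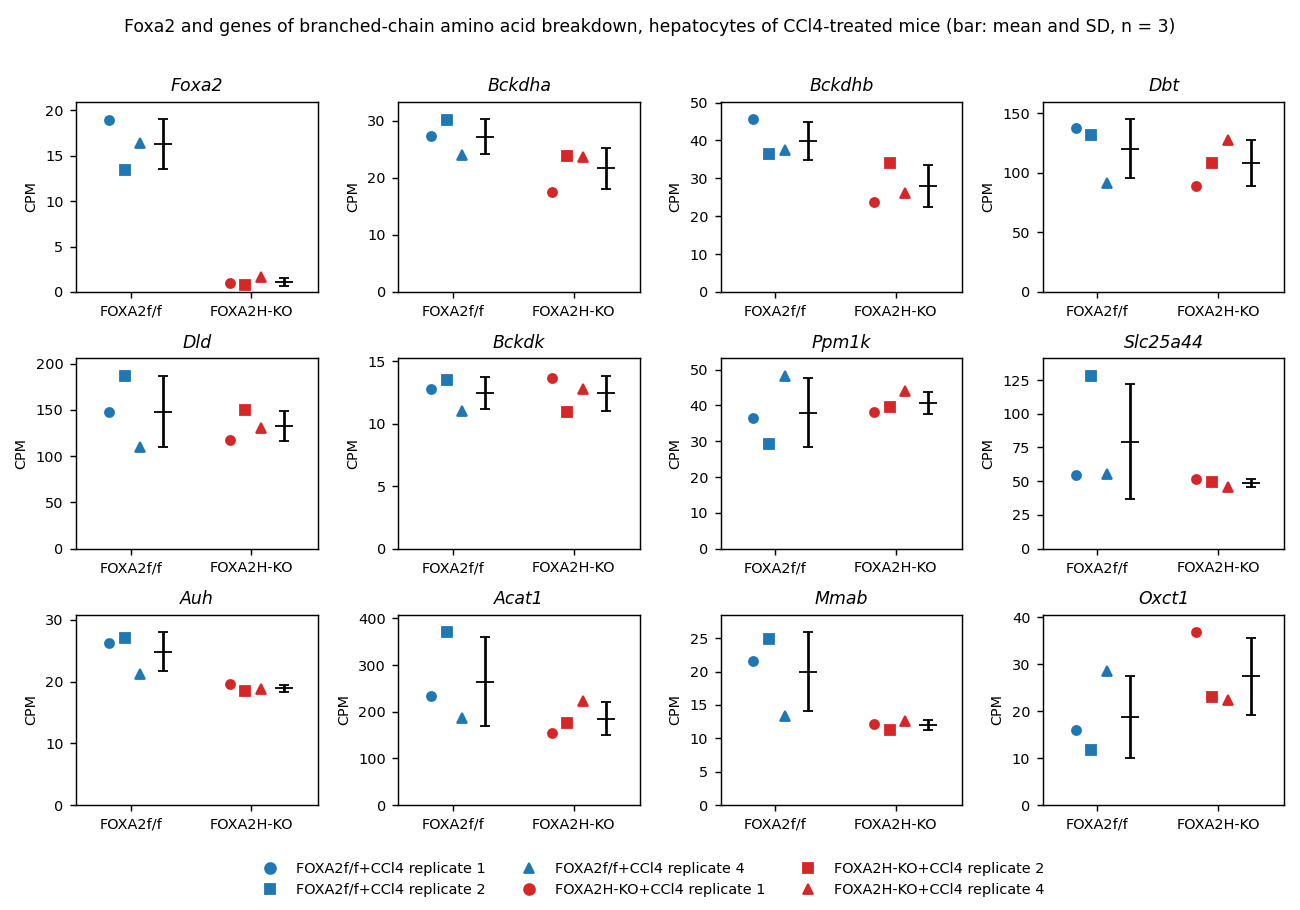
TMM-scaled CPM of Foxa2 and 11 genes of the pathway in each library (blue FOXA2f/f+CCl4, red FOXA2H-KO+CCl4), with the mean and SD of 3 libraries as a black bar and every axis starting at 0. Foxa2 falls to 7.0% of its FOXA2f/f mean, Auh and Mmab of FOXA2H-KO sit in tight clusters at or below 19.5 and 12.6 CPM, and single FOXA2f/f libraries stand high in Slc25a44 and Acat1.

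Across the 29 genes, 5 had groups that did not overlap on CPM, all lower in FOXA2H-KO (Bckdha, Bckdhb, Slc25a44, Auh and Mmab), against 10.5% of all genes in either direction, 5.96% lower and 4.54% higher. On FPKM, 5 genes were lower in every FOXA2H-KO library (Bckdha, Auh, Echs1, Abat and Mmab) and 1 was higher (Aldh6a1), against 11.5% of all genes, 3.24% lower and 8.28% higher. Bckdha, Auh and Mmab stood apart on both scales. None of the 29 genes had an adjusted p under 0.05 on either scale.

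Libraries of the same group differed over much of the pathway. FOXA2f/f replicate 2 was the highest of the 6 libraries in 20 of the 29 genes (69.0%), against 29.7% of all genes, and FOXA2H-KO replicate 1 was the lowest in 13 of the 29 (44.8%), against 15.4%. When each gene was set against its mean log2 CPM over the 6 libraries, the median over the 29 genes was 0.12, 0.32 and -0.16 in FOXA2f/f replicates 1, 2 and 4 and -0.22, 0.00 and -0.08 in FOXA2H-KO. FOXA2f/f replicate 4 thus lay among the FOXA2H-KO libraries, and the groups overlapped. The 10 hepatocyte markers had a similar order, with 159823 CPM in FOXA2f/f replicate 2 and the lowest sums in FOXA2H-KO replicate 1 (108180 CPM) and FOXA2f/f replicate 4 (114992 CPM), while the stellate cell and macrophage sums were lowest in FOXA2f/f replicate 2. The part of these cell type markers in the pathway values was not tested.

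**Figure D4:**
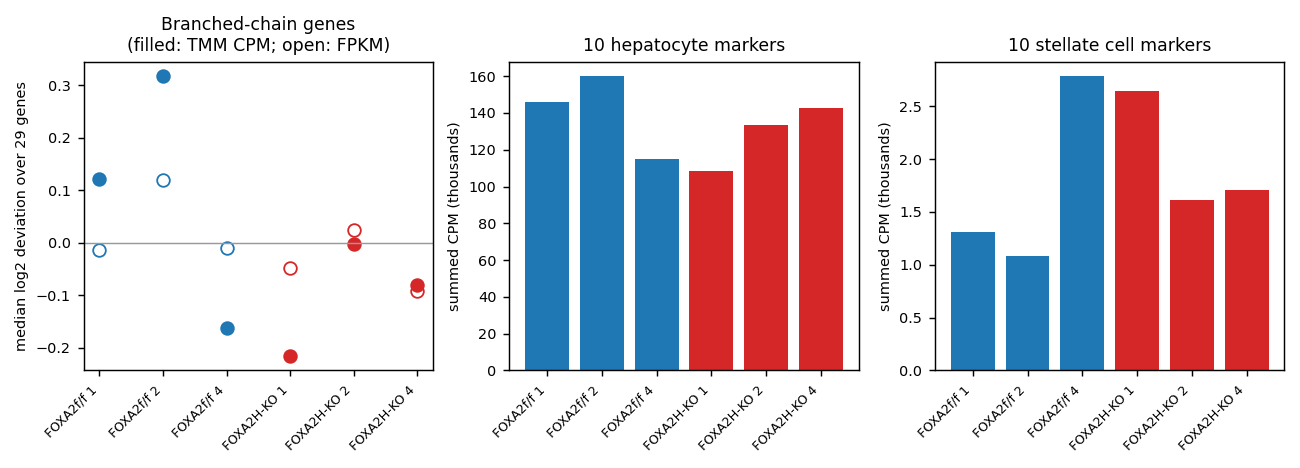
Left, median over the 29 genes of the log2 level of each library relative to the mean of the 6 libraries, on TMM-scaled CPM (filled) and FPKM (open); middle and right, summed CPM of 10 hepatocyte and 10 stellate cell markers (blue FOXA2f/f+CCl4, red FOXA2H-KO+CCl4). FOXA2f/f replicate 4 and FOXA2H-KO replicate 1 have the lowest pathway medians on CPM (-0.16 and -0.22), the lowest hepatocyte marker sums and the highest stellate cell marker sums.

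On FPKM, which carries no TMM scaling, the medians were -0.01, 0.12 and -0.01 in FOXA2f/f and -0.05, 0.02 and -0.09 in FOXA2H-KO, and FOXA2f/f replicate 2 was the highest library in 13 of the 29 genes (44.8%), against 13.5% of all genes. The median of all genes itself lay at -0.13, -0.18 and 0.14 in FOXA2f/f and at 0.17, 0.03 and -0.01 in FOXA2H-KO on this scale. Relative to all genes, the pathway stood at 0.12, 0.30 and -0.15 in FOXA2f/f and at -0.22, -0.01 and -0.08 in FOXA2H-KO on either scale. The median coefficient of variation of the 29 genes was 19.4% in FOXA2f/f and 9.88% in FOXA2H-KO on CPM, but 10.1% and 9.38% on FPKM, while over all genes it was 20.6% and 12.8% on CPM and 21.1% and 14.1% on FPKM. The pathway thus varied less per library total than after TMM scaling, and its median log2 fold change moved from -0.21 to -0.08 with library size alone, where the median of all genes moved from -0.01 to 0.10.

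**Figure D5:**
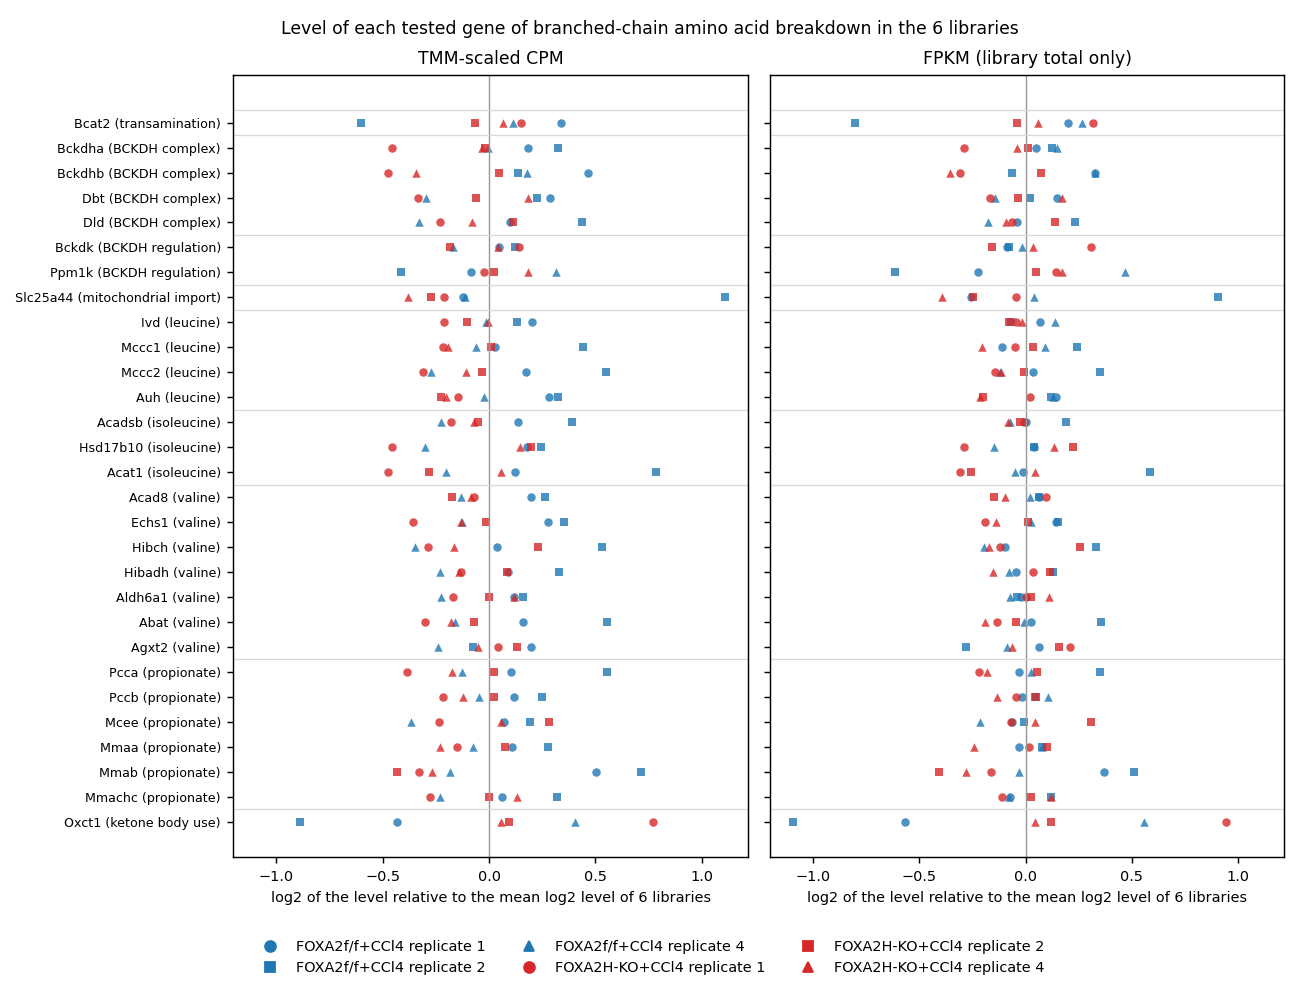
Level of each of the 29 genes in the 6 libraries as log2 relative to the gene's own mean over the libraries, after TMM scaling (left) and as FPKM (right); colours give the groups and symbols the replicate numbers. Blue squares (FOXA2f/f replicate 2) lie at the right end in 20 genes on the left and in 13 on the right, and red and blue overlap in most rows.

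The other genes of the pathway, 51 genes of the propionate and cobalamin steps, ketone body formation, shared beta-oxidation, aldehyde dehydrogenases, electron acceptors, cofactors, related dehydrogenases, transport and regulators, were also read from the fit over all genes. Of these, 0 were called by the edgeR quasi-likelihood test and 6 passed an unadjusted p of 0.05, 4 lower and 2 higher (11.8%, against 5.17% of all genes), while DESeq2 called 2 (Aldh3a2 and Aacs) and edgeR's exact test 1 (Aldh3a2), against 0.486% and 0.444% of all genes. The fitted value was lower for 36 of the 51, against 52.2% of all genes, and the median was -0.13. With libraries scaled by their total alone, 24 of the 51 were lower, against 32.3% of all genes. The median of the 51 was then 0.01 and that of all genes 0.10. When a library was left out, it ran from -0.17 (without FOXA2H-KO replicate 4) to -0.03 (without FOXA2f/f replicate 2) for the 51. The 4 lower genes were Aacs, a cytosolic acetoacetyl-CoA synthetase (log2 fold change -1.28), Aldh1b1, a mitochondrial aldehyde dehydrogenase (-0.70), Acsf3, a malonyl- and methylmalonyl-CoA synthetase (-0.52), and Acat2, the cytosolic thiolase (-0.48). Aldh1b1 was at 285 ± 79.8 CPM (SD, n = 3) in FOXA2f/f and 175 ± 18.7 CPM in FOXA2H-KO. Acsf3 was at 26.6 ± 8.35 and 18.4 ± 0.335 CPM, and Acat2 at 50.7 ± 12.8 and 36.3 ± 1.16 CPM. Without FOXA2f/f replicate 2, the log2 fold changes were -1.03 for Aacs, -0.46 for Aldh1b1, -0.24 for Acsf3 and -0.25 for Acat2.

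Aldh3a2, a fatty aldehyde dehydrogenase, was at 64.4, 60.5 and 81.8 CPM in FOXA2f/f and at 181, 138 and 175 CPM in FOXA2H-KO (log2 fold change 1.26, SE 0.18, edgeR adjusted p = 0.539). Pdk4, the kinase of the related pyruvate dehydrogenase complex, was at 18.0, 8.77 and 36.9 CPM in FOXA2f/f and at 55.3, 32.2 and 51.1 CPM in FOXA2H-KO (log2 fold change 1.11, SE 0.47, edgeR adjusted p = 0.941). Aldh3a2 did not overlap between the groups and Pdk4 did. Aacs was at 85.7, 96.7 and 38.6 CPM in FOXA2f/f and at 32.5, 35.3 and 23.3 CPM in FOXA2H-KO, without overlap. The groups of Aldh1b1, Acsf3, Acat2, Slc7a5 and Abcd4 did not overlap on CPM either, all lower in FOXA2H-KO. Slc7a5 encodes a large neutral amino acid transporter (log2 fold change -0.60) and Abcd4 a lysosomal cobalamin transporter (-0.24). On FPKM, the groups of Aldh3a2, Aacs and Aldh1b1 also stood apart, while those of Acsf3, Acat2, Slc7a5 and Abcd4 overlapped. In all, 7 of the 51 genes (13.7%) had groups that did not overlap on CPM, against 10.5% of all genes.

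Promoter sequences were read for the 3 genes at an unadjusted p under 0.05 (Bckdhb, Auh and Mmab) and for Hibadh, since FOXA2 binds DNA through a forkhead motif and Auh and Hibadh hold its letters. Each is the RefSeq GRCm38.p6 window from 250 bases before to 50 bases after a start, written 5′ to 3′ on the strand of the gene, with forkhead letters in capitals: Bckdhb at chr9:83924887-83925186 (plus), Auh at chr13:52929628-52929927 (minus), Mmab at chr5:114443978-114444277 (minus) and Hibadh at chr6:52640251-52640550 (minus).
Bckdhb: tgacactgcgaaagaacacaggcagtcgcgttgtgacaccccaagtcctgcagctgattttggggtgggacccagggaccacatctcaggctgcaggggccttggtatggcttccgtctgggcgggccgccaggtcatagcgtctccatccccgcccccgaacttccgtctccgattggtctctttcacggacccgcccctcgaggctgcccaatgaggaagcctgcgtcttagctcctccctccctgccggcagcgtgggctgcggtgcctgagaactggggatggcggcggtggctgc
Auh: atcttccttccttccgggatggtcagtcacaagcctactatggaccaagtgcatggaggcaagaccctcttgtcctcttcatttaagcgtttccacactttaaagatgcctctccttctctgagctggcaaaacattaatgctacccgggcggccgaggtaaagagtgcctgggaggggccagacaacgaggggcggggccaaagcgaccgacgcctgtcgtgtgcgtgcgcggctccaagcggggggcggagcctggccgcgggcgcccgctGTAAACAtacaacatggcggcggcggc
Mmab: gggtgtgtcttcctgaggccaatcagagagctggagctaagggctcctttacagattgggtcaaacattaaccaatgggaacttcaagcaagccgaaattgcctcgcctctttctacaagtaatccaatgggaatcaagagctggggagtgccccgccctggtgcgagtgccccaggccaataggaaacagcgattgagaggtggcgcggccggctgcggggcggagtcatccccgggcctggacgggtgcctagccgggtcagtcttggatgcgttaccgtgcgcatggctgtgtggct
Hibadh: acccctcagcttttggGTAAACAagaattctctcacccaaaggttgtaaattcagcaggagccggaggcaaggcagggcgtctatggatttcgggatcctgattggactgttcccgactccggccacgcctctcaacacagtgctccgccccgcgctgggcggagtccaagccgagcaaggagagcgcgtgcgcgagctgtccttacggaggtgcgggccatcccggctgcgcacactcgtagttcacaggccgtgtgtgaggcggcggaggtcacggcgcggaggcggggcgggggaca

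Promoters were found for 26 of the 30 genes, 33 windows in all, and 4 spellings of the forkhead core were searched on both strands. They were TGTTTAC as the first spelling, TATTTAC as another, TGTTTGC as a further one and TATTTGC as the last. The first, TGTTTAC, was found in Hibadh, starting 234 bases before the start, and in Auh, 24 bases after it, both on the opposite strand and therefore printed as GTAAACA. The spelling TGTTTGC was found in Bckdk, 20 bases before the start, and the other spellings in no window of the pathway. Not printed above are the Bckdk window and a second window of Bckdhb (chr9:83948531-83948830, plus), which held no match. In all, 3 of the 33 windows held any of the 4 spellings, while 13.5% of 32851 RefSeq promoters did. The windows of the pathway had a median GC content of 55.3% and 16 CG dinucleotides, against 52.7% and 7 over all promoters. A match describes these letters in these windows only.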

How the data were processed

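Poly-A RNA of mouse primary hepatocytes was sequenced on an Illumina HiSeq (TruSeq, paired-end) in 3 FOXA2f/f+CCl4 and 3 FOXA2H-KO+CCl4 libraries. Per the labels, the submitters' processing notes name CASAVA 1.8, TopHat2 2.1.0, HTSeq, edgeR and mm10, and the annotation is not given in the sources used here. The authors deposited whole-number read counts per gene, without normalization, and FPKM values, which divide those counts by gene length and library total. A series-wide table with the authors' own comparison was not used.

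The counts were fitted with edgeR 4.0.16 under R 4.3.3 (filterByExpr, TMM, quasi-likelihood F test, group as the only term, Benjamini-Hochberg over 14417 genes). A call needed an adjusted p under 0.05 and a fold change of at least 2. The SE is the log2 fold change divided by the square root of F. Single ratios were compared by exact two-sided permutation. Scripts were tested on simulated data. The labels do not say whether replicates were separate mice, so p-values measure the spread between libraries, which may be partly technical. Chi-square tests found no duplicated library. Positions are from GENCODE M21 (GRCm38, the build called mm10).

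Alternatives were DESeq2 1.42.0, upper quartile scaling, library size alone, limma-trend (limma 3.58.1) of log2(FPKM + 1) where the mean FPKM reached 1, edgeR's exact test, no filter beyond 1 count, at least 10 counts in every library, no fold threshold, the replicate block and each library left out. Scaling to the hepatocyte markers was added after seeing the data. The genes and lists were chosen with earlier results of these data known. Values per library are given for BCKDH and its regulators, for genes whose groups did not overlap, and for genes at an unadjusted p under 0.05 or an absolute log2 fold change of at least 0.5.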

Additional observations from a re-analysis of the deposited data

How the results depend on the processing

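Of the 29 tested genes, 0 were called under every alternative, and 18 kept their direction in all of them. The smallest adjusted p of any of them was 0.192. The median of the 29 genes ran from -0.34 (without FOXA2f/f replicate 4) to -0.11 (without FOXA2f/f replicate 2) and from -0.21 to -0.07 under the other settings. Set against the median of all genes, it stood at -0.20 in the main fit and -0.18 with scaling to the hepatocyte markers. The same difference was -0.16 on FPKM, -0.10 without FOXA2f/f replicate 2 and -0.32 without FOXA2f/f replicate 4. Genes at an unadjusted p under 0.05 ran from 1 to 13 when a library was left out, with 13 without FOXA2f/f replicate 4, where 16.6% of all genes passed against 5.17% with all libraries, and from 1 to 4 otherwise. The number of called genes over the whole table was 70 with DESeq2, 64 with edgeR's exact test, 2 with no filter beyond 1 count, and 0 with library size alone, with limma on FPKM, with the replicate block and with scaling to the hepatocyte markers. It was between 0 and 6 when a library was left out, with 6 without FOXA2f/f replicate 2. The adjusted p of Foxa2 ran from 7.85e-29 to 0.499 with its log2 fold change between -4.17 and -1.95, the last on log2(FPKM + 1), and was over 0.05 without any 1 library other than FOXA2f/f replicate 2. DESeq2 called 2 and the exact test 1 of the 51 other pathway genes. The cause of these differences was not tested.

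With library size alone, on FPKM and with scaling to the hepatocyte markers, the log2 fold change reversed for Hsd17b10 (0.060, 0.045 and 0.055), Aldh6a1 (0.090, 0.088 and 0.093) and Mmachc (0.022, 0.018 and 0.024), and with scaling to the hepatocyte markers also for Hibadh (0.010). In the same settings the median of all genes was itself 0.104, 0.083 and 0.109, against -0.01 in the main fit. These reversals thus came with a shift of all genes. Leaving out a library also reversed signs. The ranges were -0.17 to 0.26 for Bcat2, -0.34 to 0.044 for Dld, -0.079 to 0.089 for Bckdk, -0.065 to 0.30 for Ppm1k, -0.22 to 0.11 for Hsd17b10 and -0.36 to 0.087 for Hibch. They were -0.27 to 0.0051 for Hibadh, -0.15 to 0.034 for Aldh6a1, -0.025 to 0.21 for Agxt2, -0.085 to 0.19 for Mcee and -0.24 to 0.039 for Mmachc. The ratio of Bckdk to Ppm1k ranged from -0.40 to 0.12 and that of Mccc1 to Mccc2 from -0.034 to 0.15.

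Deviations of same-numbered libraries from their group means correlated at -0.07, 0.03 and -0.23, and those of differently numbered libraries between -0.19 and 0.25. These correlations cannot decide whether the replicate numbers mark pairs. With the replicate block 0 genes were called, and 2 of the 29 had an unadjusted p under 0.05. With 3 libraries a group, the intervals of the 29 genes were wide, and a change such as that of Mmab, with an SE of 0.23 on the log2 scale, was not separable from the spread between libraries at the adjusted threshold.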

Other observations

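Mmab lies head to head with Mvk, which encodes mevalonate kinase of cholesterol and isoprenoid synthesis, and 208 bases separate their starts in GENCODE M21 (Mvk on chromosome 5, 114444269 to 114460591, plus strand). Mvk was chosen after its values were seen. It was at 15.5, 14.7 and 10.6 CPM in FOXA2f/f replicates 1, 2 and 4 and at 9.56, 6.82 and 9.06 CPM in FOXA2H-KO, a log2 fold change of -0.68 (SE 0.22, 95% interval -1.18 to -0.18, edgeR adjusted p = 0.794) beside -0.73 for Mmab. All 3 FOXA2H-KO libraries were lower than all 3 FOXA2f/f libraries for both neighbours on CPM, as they were for 5.96% of all genes tested. In both, the FOXA2f/f library nearest to FOXA2H-KO was replicate 4. Leaving out a library gave between -0.84 and -0.55 for Mvk, and its adjusted p was between 0.201 and 1.00 over the alternatives.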
